A study of Cavia porcellus with 12 samples.

Results

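The miR-191 and miR-425 cluster consists of 2 miRNA hairpins, hsa-mir-191 and hsa-mir-425, and it was followed here in isolated ventricular cardiomyocytes of guinea pigs exposed to DOX. Its members were taken by name: every entry of the deposited small RNA tables whose name ended exactly in one of these precursors. This gave 45 of the 2485 entries with a mean above 0 in any table, 23 under hsa-mir-191 and 22 under hsa-mir-425. The pair was chosen by a measured value, since 1 form of miR-425-5p had been singled out in these data by its difference at 22 h. The values of that form at 22 h are therefore given as a description.

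In mammals both hairpins lie close together in an intron of the gene DALRD3 and are cut from one transcript. Each hairpin yields a 5p and a 3p strand, of which one is usually kept in an Argonaute protein, where it pairs with messenger RNAs. The kept strand occurs as several forms, called isomiRs, that differ by a few bases at their ends, through imprecise cutting, trimming or the addition of single bases by terminal transferases. miR-191-5p is present in most tissues, and both miR-191-5p and miR-425-5p have served as reference miRNAs in RT-qPCR. In the RefSeq gene table of the guinea pig assembly mCavPor4.1, Dalrd3 lies between Wdr6 and Ndufaf3.

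Cardiomyocytes of adult female Hartley guinea pigs were kept at room temperature with 10 µM DOX (doxorubicin, an anthracycline used against cancer) or with its vehicle DMSO, and collected after 1 h or 22 h. By the labels there were 4 groups, DMSO 1 h, DOX 1 h, DMSO 22 h and DOX 22 h, with 3 libraries in each, 12 in all. No allele or other agent was named. The labels do not say whether libraries of a group came from different animals. The reads were aligned to human sequences, and 3 tables were deposited. The early table sets DOX against DMSO after 1 h, the late table does so after 22 h, and the DOX table sets DOX 22 h against DOX 1 h. Each entry carries a mean of normalized reads over both groups, and an entry is 1 sequence under 1 human precursor.

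In 1323 of the 1335 entries of the late table, those whose decimal mark could be restored, and in all 2369 entries above 0 of the DOX table, the mean was a weighted sum of 2 whole read numbers, so those tables hold 1 library on each side. The names of predicted miRNAs in them give replicate 1 of each group. The library that satisfied both tables, in 1052 of 1052 entries against 132 for the next best assignment, was taken as DOX 22 h, the only group that both tables name. Every direction and every order of libraries below rests on that attribution. The tables also have columns named control and comparison, which bear on it but were not used here. The direction given in the paper was set beside this attribution only for the form through which the cluster was chosen. For that form the paper gives the opposite direction, and which attribution is right was not settled. If the names of the 2 libraries of a table were exchanged, each log2 ratio from it would keep its size and change its sign. Reads of 3 libraries (DMSO 22 h, DOX 22 h and DOX 1 h) were recovered for 1216 entries, with 440362, 474736 and 623625 reads in all. With 1 library a side there is no spread between replicates and no test, so the intervals below are 95% intervals of counting error only, and PCR copies without molecular identifiers make them too narrow. At 1 h no reads could be recovered, and only the mean over DOX and DMSO is given, with no difference between them.

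The labelled cell type was checked against its markers. The cardiomyocyte precursors (mir-1-1, mir-1-2, mir-133a-1, mir-133a-2, mir-208a, mir-208b and mir-499a) were all listed and held 33.5%, 35.2% and 37.1% of the summed means in the early, late and DOX table. Smooth muscle precursors (mir-143 and mir-145) held 19.4%, 20.96% and 19.8%, and the endothelial mir-126 held 4.41%, 3.83% and 3.24%. Fibroblast precursors (mir-199a-1, mir-199a-2 and mir-214) held 0.27%, 0.20% and 0.20%. Erythroid (mir-451a and mir-144) and leukocyte (mir-142 and mir-223) precursors each held under 0.01%, and mir-122 of hepatocytes was not listed. In a bulk sample, fewer cells of a type and less RNA per cell cannot be told apart.

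The forms that carry most of the reads, and those named in the results, are printed here as the tables list them, 5′ to 3′, with the last base in capitals because the forms of an arm differ mainly there. The first number is the start of the form in the precursor as the tables count it.

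miR-191-5p, start 17, 20 bases, the most abundant form: acggaatcccaaaagcagcT
miR-191-5p, start 17, 21 bases: acggaatcccaaaagcagctG
miR-191-5p, start 17, 21 bases, T end: acggaatcccaaaagcagctT
miR-191-3p, start 60, 19 bases: gcgcttggatttcgttccC
miR-191-3p, start 60, 18 bases: gcgcttggatttcgttcC
miR-191-3p, start 59, 20 bases: tgcgcttggatttcgttccC
miR-191-3p, start 61, 19 bases: cgcttggatttcgttcccT
miR-425-5p, start 15, 21 bases, A end: tgacacgatcactcccgttgA
miR-425-5p, start 15, 21 bases, T end: tgacacgatcactcccgttgT
miR-425-3p, start 55, 20 bases: tcgggaatgtcgtgtccgcC
miR-425-3p, start 56, 18 bases: cgggaatgtcgtgtccgC

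Within each arm these sequences share their middle part, so a read lost from one form can stand under another. No seed was marked, because mature reference sequences were not used here. None of the 45 sequences was listed under another precursor.

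miR-191-5p was by far the most abundant of the 4 arms. The summed means of miR-191-5p were 16840 in the early, 11685 in the late and 14810 in the DOX table, which is 0.287%, 0.245% and 0.247% of all means. It ranked 45 of 346, 49 of 319 and 49 of 435 arms listed. miR-425-5p summed to 661.0, 455.2 and 509.5 and ranked 135, 141 and 149. miR-191-5p thus exceeded miR-425-5p by 25.5, 25.7 and 29.1 times in the same order of tables. These levels were not scaled by length. The longest listed form had 21 bases in each of the 4 arms, and whether listed forms cover the whole small RNA was not tested.

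The 3p strands were close to each other in level. miR-191-3p summed to 198.9, 183.1 and 222.4 and miR-425-3p to 133.2, 92.4 and 156.7 in the same order of tables, a ratio of 1.49, 1.98 and 1.42. The 5p strand exceeded the 3p strand by 84.7, 63.8 and 66.6 times for mir-191 and by 4.96, 4.93 and 3.25 times for mir-425. The hairpins therefore differed in the balance of their strands in all 3 tables, with no replicate spread to set beside it. Ratios of different tables rest on different forms and cannot be set against each other. The early, late and DOX table listed 6, 5 and 16 forms of miR-425-3p. Over entries of all 3 tables, miR-425-5p held 0.0110%, 0.0093% and 0.0082% of the means and miR-425-3p 0.0019%, 0.0016% and 0.0015%. miR-191-3p held 0.0034%, 0.0036% and 0.0032%.

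The 4 arms also differed in the number of forms. The early and the late table each listed 22 of the 45 forms and the DOX table listed all 45, and 19 were in all 3 tables. The lowest mean in the late table was 10.0, so a form with few reads in 1 library was listed there only through the other library. In the DOX table miR-425-3p had 16 forms, miR-191-5p 12, miR-191-3p 11 and miR-425-5p 6.

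miR-191-5p began at start 17 in 11 of its 12 forms, which held 100% of its summed means in the early and late tables and 99.98% in the DOX table. Its 20-base form held 52.3%, 50.7% and 51.7% of the arm, its 21-base G-ending form 25.7%, 25.6% and 26.1%, and its 21-base T-ending form 4.98%, 5.04% and 4.74%. The make-up of miR-191-5p thus moved by less than 2 percentage points between tables for each of these forms. miR-425-5p was led by its 21-base A-ending form, with 72.5%, 71.5% and 72.2%, followed by the 20-base form with 20.5%, 17.5% and 19.4%. The T-ending 21-base form of miR-425-5p held 4.55% in the early, 8.68% in the late and 3.87% in the DOX table.

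**Figure D1:**
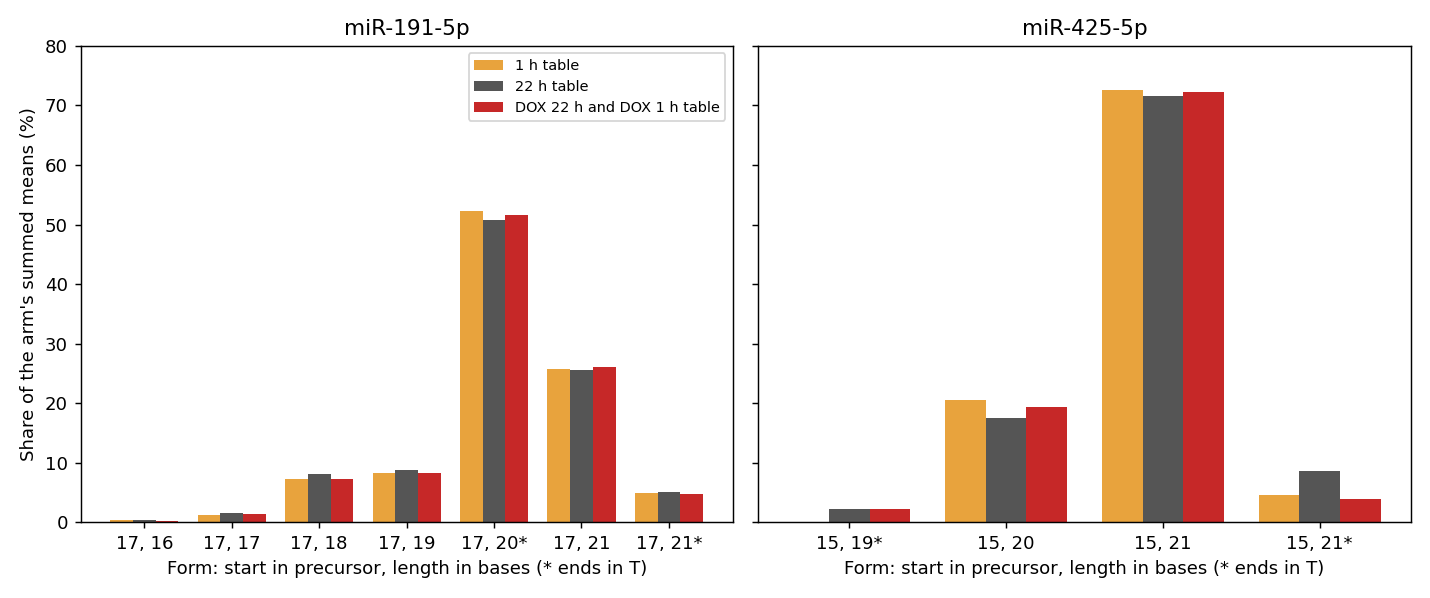
Share (%) of each form in the summed means of its 5p arm, in the 3 tables, for the forms listed in the late table (x axis: start and length in bases, * marks a form that ends in T); the bars have no error because the tables hold 1 mean per form, and the 19-base form of miR-425-5p was not listed at 1 h. The 20-base form of miR-191-5p stays near 51% in each table, and the T-ending 21-base form of miR-425-5p stands at 8.68% in the late (22 h) table against 4.55% and 3.87%.

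The 3p arms were more varied at their 5′ end. miR-191-3p began at start 60 for 71.4%, 78.4% and 74.0% of its summed means and at start 59 for 28.6%, 15.4% and 21.6%. miR-425-3p was split between start 55, with 65.1%, 50.3% and 49.9%, and start 56, with 34.9%, 49.7% and 38.3%. These shares depend on which forms each table lists. The 18-base form at start 56 was listed in the late but not the early table, and some forms at start 55 the other way round. Among forms in all 3 tables, the 20-base form at start 55 held 36.5%, 37.4% and 37.3%. The 20-base form at start 56 held 23.1%, 25.3% and 29.3%. The mean length was 18.8 to 19.0 bases for miR-191-3p, 19.4 to 19.6 for miR-425-3p, 20.0 for miR-191-5p and 20.7 to 20.8 for miR-425-5p over the 3 tables.

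Reads of all 3 libraries were recovered for 21 of the 22 member forms in the late table. The exception was the most abundant form of miR-191-5p, whose means allow 3 splits between the libraries. The split in the middle gives 5540 reads in DMSO 22 h, 6335 in DOX 22 h and 9210 in DOX 1 h, with scaled log2 ratios of 0.02 for DOX 22 h over DMSO 22 h and -0.18 for DOX 22 h over DOX 1 h. The others put the log2 ratio at -4.37 or 4.67 at 22 h and at -4.47 or 3.10 for DOX 22 h over DOX 1 h. The means of this form alone do not choose between them, so it was left out of the sums of reads below. Few entries with at least 1000 recovered reads were past 2-fold. They were 0.89% at 22 h and 0% for DOX 22 h over DOX 1 h, so the outer splits would be unusual.

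Without that form, miR-191-5p had 5418 reads in DMSO 22 h, 6126 in DOX 22 h and 8307 in DOX 1 h. Scaled to the depth of the DOX 22 h library, these are 6092, 6126 and 6461 reads. The libraries at 22 h were within counting error of each other, with a log2 ratio of DOX over DMSO of 0.01 (interval -0.05 to 0.06). Against DOX 1 h the log2 ratio was -0.08 (interval -0.12 to -0.03), a difference of a few percent.

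Its forms stayed close to an equal level at 22 h. The G-ending 21-base form had 2864, 3115 and 4748 reads in DMSO 22 h, DOX 22 h and DOX 1 h, the 19-base form 950, 1101 and 1386, the 18-base form 858, 1028 and 1137, and the T-ending 21-base form 555, 625 and 787. Their log2 ratios at 22 h ran from -0.05 to 0.09, and all 6 forms with reads lay between -0.05 and 0.30 with intervals that held an equal level. Against DOX 1 h the 17-base form was higher in DOX 22 h, with 220 against 207 reads and a log2 ratio of 0.45 (interval 0.17 to 0.73). The 18-base form was higher at 0.22 (interval 0.09 to 0.34). The G-ending 21-base form was lower at -0.25 (interval -0.31 to -0.18). The intervals of the 16-base form, at 0.18, the 19-base form, at 0.03, and the T-ending 21-base form, at 0.03, held an equal level.

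miR-425-5p had 469 reads in DMSO 22 h, 438 in DOX 22 h and 565 in DOX 1 h, or 527, 438 and 439 scaled reads. The log2 ratio was -0.27 (interval -0.46 to -0.08) for DOX 22 h over DMSO 22 h and -0.00 (interval -0.19 to 0.18) for DOX 22 h over DOX 1 h. These sums hold the form through which the cluster was chosen. Without it the log2 ratios of the arm were -0.10 (interval -0.30 to 0.10) and 0.03 (interval -0.16 to 0.21), so no difference in the arm was detectable at this depth beyond that form. Its leading form, which ends in A, had 327, 323 and 419 reads, with log2 ratios of -0.19 (interval -0.41 to 0.04) and -0.01 (interval -0.23 to 0.20). Its 20-base form had 70, 90 and 108 reads, with log2 ratios of 0.19 and 0.10, and its 19-base form had 9, 12 and 10.

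The form of miR-425-5p through which the cluster was chosen is the 21-base form that ends in T, printed above. It had 63 reads in DMSO 22 h, 13 in DOX 22 h and 28 in DOX 1 h, or 70.8, 13 and 21.8 scaled reads. Under the attribution used here, the DMSO 22 h library stood above both DOX libraries. The paper lists the same sequence as upregulated after 22 h of DOX, the opposite direction. Which attribution is right was not settled here. The log2 ratio was -2.45 (interval -3.43 to -1.57) for DOX 22 h over DMSO 22 h, the contrast behind the choice, and -0.74 (interval -1.82 to 0.25) for DOX 22 h over DOX 1 h. With the names of the 2 libraries at 22 h exchanged, the former would be 2.45. Among the deposited means the same form stood at 30.1 in the early, 39.5 in the late and 19.7 in the DOX table.

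**Figure D2:**
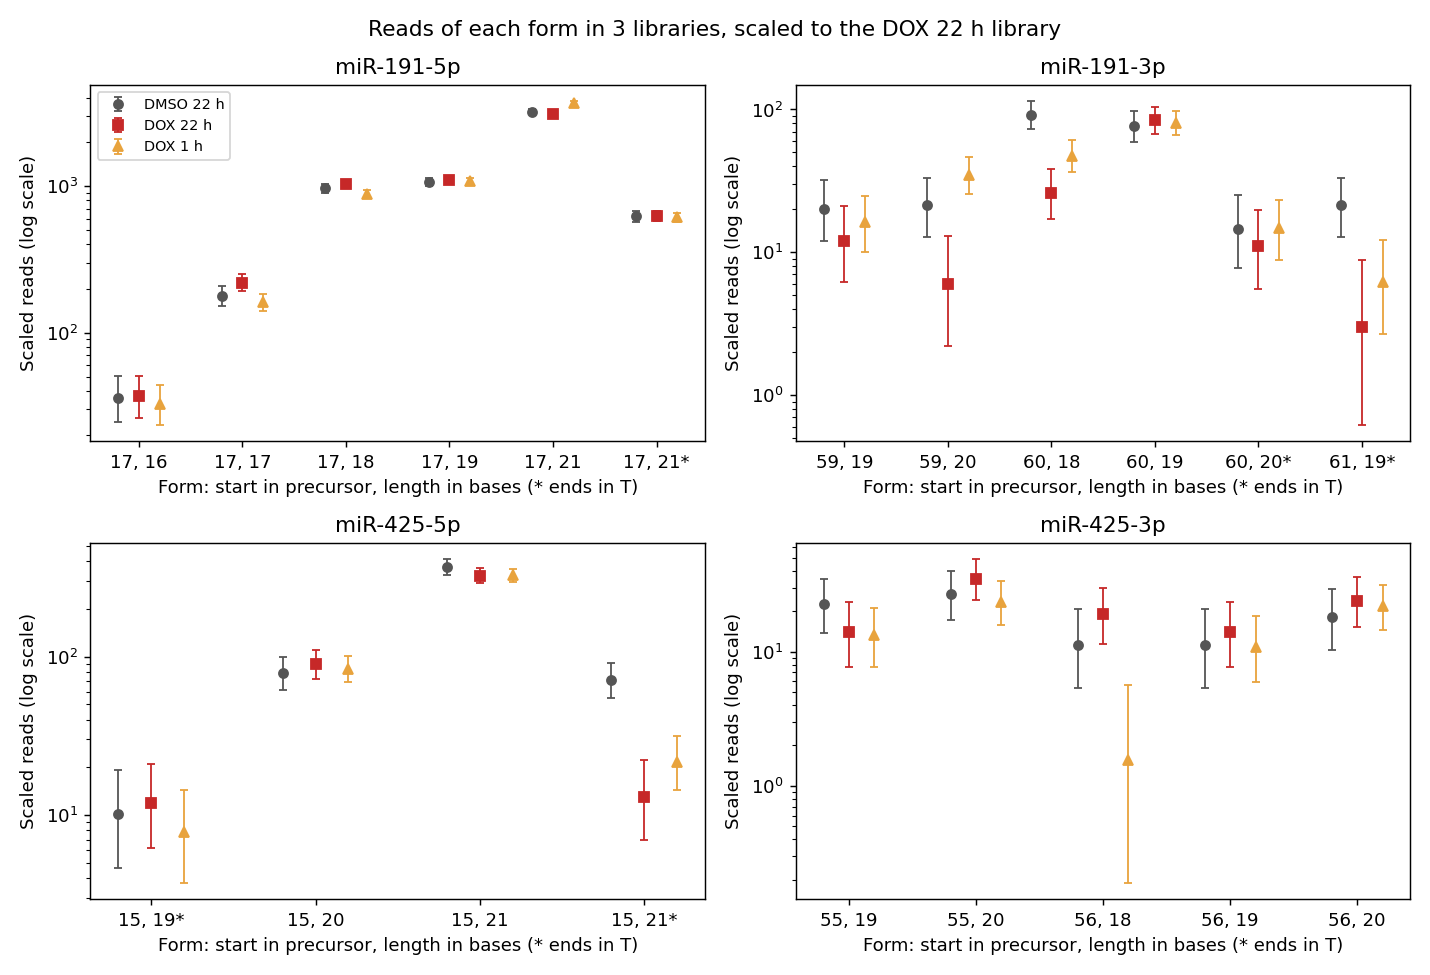
Reads of each of the 21 forms in the DMSO 22 h, DOX 22 h and DOX 1 h libraries, scaled to the DOX 22 h library (y axis, log scale; x axis, start and length in bases, * marks a form that ends in T); bars are 95% Poisson intervals of counting error. The 6 miR-191-5p forms lie close together in the 3 libraries, while the T-ending 21-base form of miR-425-5p has 70.8 scaled reads in DMSO 22 h against 13 and 21.8 in the DOX libraries.

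Each 5p arm held a 21-base form that ends in T beside one that has the same first 20 bases and another last base, and this pair was compared after its values had been seen. In miR-191-5p the T-ending form made up 16.2% (interval 15.01 to 17.5) of the pair's reads in DMSO 22 h, 16.7% (interval 15.5 to 17.9) in DOX 22 h and 14.2% (interval 13.3 to 15.2) in DOX 1 h. In miR-425-5p it made up 16.2% (interval 12.6 to 20.2) in DMSO 22 h, 3.87% (interval 2.08 to 6.53) in DOX 22 h and 6.26% (interval 4.20 to 8.93) in DOX 1 h. The shares of miR-425-5p restate the reads of the form through which the cluster was chosen and are a description. On the log2 scale of the odds of a T end, DOX 22 h over DMSO 22 h was 0.05 for miR-191-5p and -2.26 for miR-425-5p. For DOX 22 h over DOX 1 h it was 0.28 for miR-191-5p and -0.73 for miR-425-5p. Over 87 such pairs of other precursors, of any length, the 22 h value ran from -3.71 to 1.91 with a median of -0.10. Among these pairs, 18 were 1 or more from 0 on this scale, and 2 were at or below miR-425-5p. For DOX 22 h over DOX 1 h, 13 of the 87 were at or below miR-425-5p.

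miR-191-3p, the less abundant strand of its hairpin, had 219 reads in DMSO 22 h, 142 in DOX 22 h and 258 in DOX 1 h, or 246, 142 and 201 scaled reads. The library taken as DOX 22 h was the lowest of the 3, with a log2 ratio of -0.79 (interval -1.11 to -0.48) to DMSO 22 h and -0.50 (interval -0.80 to -0.20) to DOX 1 h. With the names exchanged, these would be 0.79 and 0.50. The sums hold the 20-base form at start 59 and the 19-base form at start 61. Both reached the floor of the late table only through the DMSO 22 h library, so the ratios of the arm are a description.

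The forms of miR-191-3p did not move together. The 18-base form at start 60 had 82 reads in DMSO 22 h, 26 in DOX 22 h and 61 in DOX 1 h, with log2 ratios of -1.83 (interval -2.52 to -1.17) and -0.87 (interval -1.59 to -0.18). The 20-base form at start 59 had 19, 6 and 45 reads, with log2 ratios of -1.83 (interval -3.45 to -0.45) and -2.54 (interval -4.06 to -1.31). The 19-base form at start 61 had 19, 3 and 8 reads, with log2 ratios of -2.83 (interval -5.23 to -1.07) and -1.05 (interval -3.60 to 1.01). These 3 forms were the lower ones at 22 h. The forms at start 59 and start 61 reached the floor of the late table only through the DMSO 22 h library, so their ratio there had to be low. The most abundant form, 19 bases at start 60, had 68, 84 and 104 reads and went slightly the other way, at 0.14 (interval -0.34 to 0.62) and 0.05 (interval -0.38 to 0.48). The other 2 forms had 11 to 21 reads in each library and intervals that held an equal level in both comparisons. Without the form at start 61 the arm was at -0.69 (interval -1.02 to -0.37) at 22 h, and without the 18-base form at start 60 it was at -0.41 (interval -0.78 to -0.04). Against DOX 1 h these were -0.48 (interval -0.79 to -0.18) and -0.40 (interval -0.75 to -0.06). The 20-base form at start 59 was not left out in turn, nor were the 3 lower forms left out together. How far the ratios of the arm rest on these forms was therefore not computed. That form holds 45 of the arm's 258 reads in DOX 1 h and 6 of the arm's 142 in DOX 22 h.

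miR-425-3p had 80 reads in DMSO 22 h, 106 in DOX 22 h and 91 in DOX 1 h, or 90.0, 106 and 70.8 scaled reads. The log2 ratio was 0.24 (interval -0.20 to 0.67) to DMSO 22 h and 0.58 (interval 0.16 to 1.00) to DOX 1 h. Its 18-base form at start 56 had 10, 19 and 2 reads, and with only 2 reads in DOX 1 h its log2 ratio of 3.61 has an interval from 1.56 to 6.76. The other 4 forms had 10 to 35 reads and intervals that held an equal level in both comparisons. Without the 18-base form, miR-425-3p had 70, 87 and 89 reads and stood at 0.33 to DOX 1 h, with an interval from -0.11 to 0.77 that holds an equal level. Entries with fewer than 50 reads had a median log2 ratio of 0.28 in this comparison over all precursors.

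**Figure D3:**
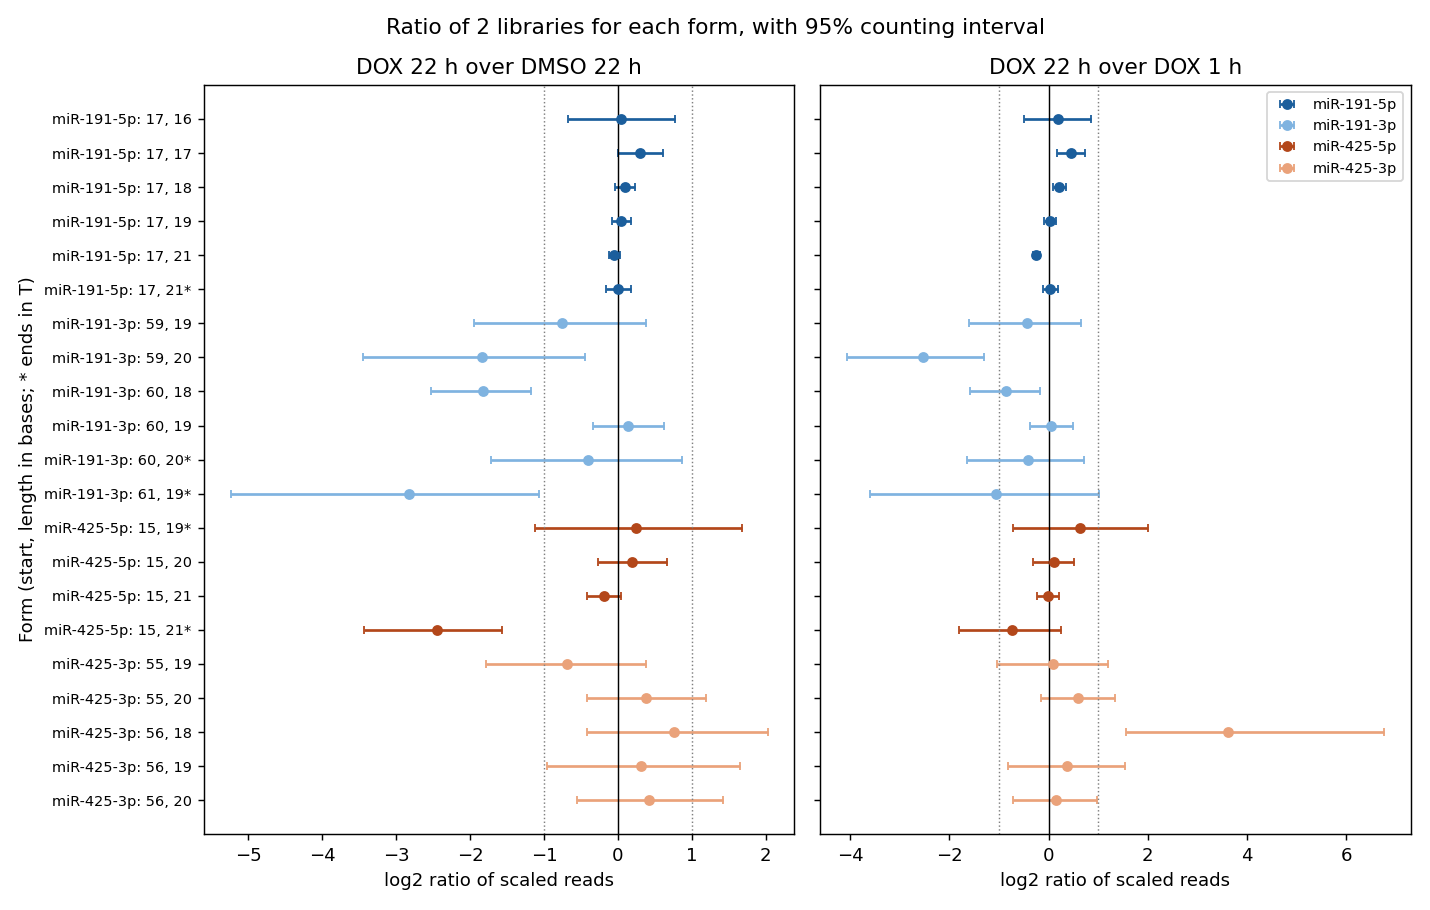
log2 ratio of scaled reads for each of the 21 forms (start, length in bases, * marks a T end), DOX 22 h over DMSO 22 h on the left and DOX 22 h over DOX 1 h on the right; bars are 95% counting intervals, and dotted lines mark a 2-fold difference. Below the lower dotted line at 22 h are 3 forms of miR-191-3p and the T-ending 21-base form of miR-425-5p, while the miR-191-5p forms lie between -0.05 and 0.30.

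The strands of a hairpin can be set against each other within a library. For mir-425 the 3p strand made up 14.6% (interval 11.7 to 17.8) of the recovered reads in DMSO 22 h, 19.5% (interval 16.2 to 23.1) in DOX 22 h and 13.9% (interval 11.3 to 16.8) in DOX 1 h. For mir-191, without the most abundant 5p form, it made up 3.89% (interval 3.40 to 4.42), 2.27% (interval 1.91 to 2.66) and 3.01% (interval 2.66 to 3.40). The intervals of mir-425 in DMSO 22 h and DOX 22 h overlapped. The order of libraries for mir-191 is not settled, because its unresolved 5p form can turn it: with 1 split of that form the 3p shares would be 1.34%, 2.07% and 1.02% in DMSO 22 h, DOX 22 h and DOX 1 h, with the middle split 1.96%, 1.13% and 1.45%, and with the remaining one 3.61%, 0.77% and 2.49%. At 22 h the log2 ratio of the 3p strand minus that of the 5p strand was -0.80 for mir-191, again without that form, and 0.50 for mir-425. Over 42 other precursors with at least 50 reads of each strand in each library, this difference ran from -1.03 to 0.97 with a median of -0.05, and 1 of them was at or below mir-191. For DOX 22 h over DOX 1 h it was -0.42 for mir-191 and 0.59 for mir-425, and over the other 42 it ran from -0.82 to 1.78 with 4 at or below mir-191. This comparison too was added after the values had been seen. The place of mir-191 among the other precursors is likewise not settled. With its unresolved form added, its 5p arm would be at -1.43, 0.02 or 1.47 at 22 h. Its 3p sum also holds forms that reached the floor of the late table only through the DMSO 22 h library.

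**Figure D4:**
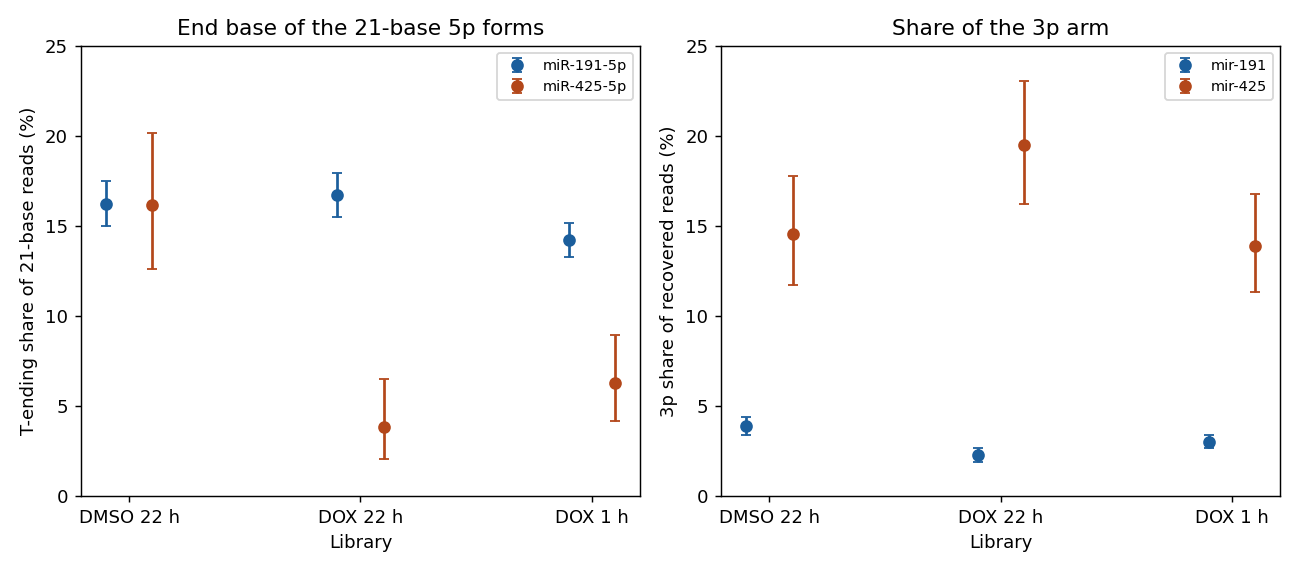
Left, share (%) of the T-ending form among the reads of the paired 21-base 5p forms in each library; right, share (%) of the 3p strand among the recovered reads of each hairpin (mir-191 without its most abundant 5p form); bars are 95% Clopper-Pearson intervals of counting error. The T-ending share of miR-425-5p is 16.2% in DMSO 22 h and 3.87% in DOX 22 h, while that of miR-191-5p is 16.2% and 16.7%.

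Among the 21 forms, 4 were lower by 2-fold or more in DOX 22 h than in DMSO 22 h, against 4.85% of all 1216 entries with reads, and 0 were higher, against 6.66%. One of these 4 is the form behind the choice, and all had 82 reads or fewer in each library. Among all entries, 25% of those with fewer than 50 reads in the pair of libraries were past 2-fold, against 0.89% of those with at least 1000. Among the 18 forms whose reads reached the floor of the late table in both of its libraries, 2 were lower by 2-fold or more, against 2.83% of 1097 such entries, and 1 of these is the form behind the choice, while 0 were higher, against 3.46%. By the counting interval, 4 of the 21 forms were lower, against 18.8% of all entries, and 0 were higher, against 19.5%. The median log2 ratio was 0.04 over the 21 forms and 0.00 over all entries.

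Between DOX 22 h and DOX 1 h, which share the DOX 22 h library with the comparison above, 2 forms were lower by 2-fold or more, both of miR-191-3p, against 2.14% of all entries. One form, of miR-425-3p, was higher, against 5.92%. Among the same 18 forms, 0 were lower, against 1.09%, and 1 was higher, against 4.19%. By the counting interval 3 forms were lower, against 16% of all entries, and 3 were higher, against 17.1%. The median log2 ratio was 0.05 over the 21 forms and 0.05 over all entries. The members' counts by the interval were near the background in this comparison.

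**Figure D5:**
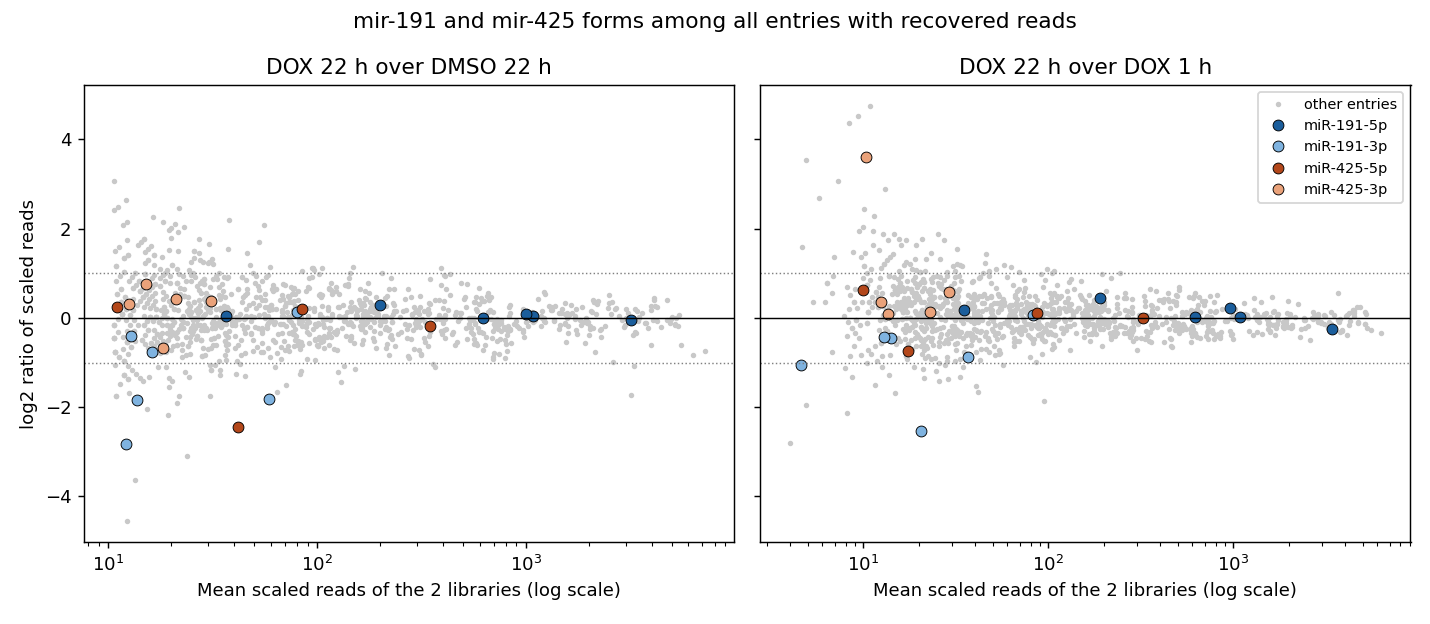
log2 ratio of scaled reads (y axis) against the mean scaled reads of both libraries (x axis, log scale) for every entry with reads in all 3 libraries, DOX 22 h over DMSO 22 h on the left and DOX 22 h over DOX 1 h on the right; grey points are other precursors, coloured points the 21 forms, and dotted lines mark 2-fold. The spread of the grey points narrows as reads increase, and the members past 2-fold lie among entries with few reads.

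By the nearness of their log2 ratios in both comparisons, among 181 arms of other precursors with at least 100 reads in each library, the arms most like miR-191-5p were miR-185-5p, miR-30d-5p and the 3p arm of mir-199a-1. Those nearest to miR-425-5p were the 3p arms of mir-128-1, mir-363 and mir-139. miR-128 from mir-128-1 had 2173, 2073 and 2692 reads, with log2 ratios of -0.24 and -0.01. The likeness rests on 3 libraries and 2 ratios.

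Other miRNAs used as RT-qPCR references, 6 precursors, are given by their recovered reads, which leave out the leading form of mir-423, as they do for miR-191-5p, so no order among them is drawn. mir-103a-1 had 3365 reads in DMSO 22 h, 5310 in DOX 22 h and 6035 in DOX 1 h, with log2 ratios of 0.49 and 0.18, and mir-103a-2 was at 0.44 and 0.13. mir-93 was at 0.25 and 0.20, mir-423 at -0.16 and -0.40, mir-16-1 at -0.24 and -0.21, and mir-16-2 at -0.28 and -0.20. Summed, the 6 were at 0.01 and -0.06.

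Some marker precursors of other cells stood apart between the same libraries, while others were near an equal level. At 22 h the log2 ratio of DOX over DMSO was -0.70 for mir-143, with 8340 and 5773 recovered reads, and 0.33 for mir-145. It was -0.02 for mir-126, -0.17 for the cardiomyocyte list, 0.02 for the fibroblast list, 0.18 for the erythroid list and -0.15 for the leukocyte list. Reads were recovered for 8 of the 13 forms of mir-143 at 22 h and 9 of the 10 of mir-145. They were recovered for 17 of the 22 of mir-126 and 73 of the 87 of the cardiomyocyte list, so these values do not cover every form. The forms left out hold most of the signal. For mir-143, 8340 and 5773 reads in DMSO 22 h and DOX 22 h stand against a summed mean of 985996 in the late table. For mir-145 it was 3858 and 5451 against 15346.5, and for mir-126 it was 23584 and 26155 against 182810. The cardiomyocyte list had 20689 and 20707 against 1.68e+06. Those values thus describe the less abundant forms. For the fibroblast, erythroid and leukocyte lists, reads were recovered for all 44, all 3 and all 9 forms. The part of these marker precursors in the results for the cluster was not tested.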

How the data were processed

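Small RNA libraries (TruSeq kit, Illumina HiSeq) were, per the labels and the study's methods, processed in the BaseSpace Small RNA application 1.0 against human sequences (hg19), and the authors compared groups with DESeq2. The only column used was the mean signal that the authors deposited, reads divided by size factors and averaged over both groups. The fold changes, standard errors, p-values and fitted values per group in the authors' tables, 6 columns of fitted group values among them, were not used. Depth per library was not given. In the 1 h and 22 h tables the means came without a decimal mark, which was put back by matching the size of each entry's mean in the DOX 22 h and DOX 1 h table (1506 of 1610 and 1323 of 1335 entries).

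Each mean with DOX 22 h was solved for the whole reads of 2 libraries, both tables together, and kept where 1 solution existed. DMSO 22 h reads were multiplied by 1.12 and DOX 1 h reads by 0.778, the scales the means imply. Intervals are Clopper-Pearson or Poisson at 95%. Starts over 15 bases apart were taken as different arms. Called means 2-fold. All member entries are accounted for, and those named were every entry with reads in the 3 libraries, the T-ending form of miR-425-5p and the 3 nearest arms. The members and lists were chosen with earlier results of these data known. The recovery was tested on simulated data. Alternatives were the scaling, the entries summed, 0.5 read added, a 1.5-fold limit and minimums of 10 and 100 reads. Python 3.11.15, numpy 2.4.6, pandas 2.3.3, scipy 1.17.1 and matplotlib 3.10.9 were used.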

Additional observations from a re-analysis of the deposited data

How the results depend on the processing

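No paired analysis was possible because each table with recovered reads holds 1 library on each side, and for the same reason no replicate could be left out. Of 93 alternative values, 58 stayed within the counting interval of the reported value or within 1.5 times of the count, 26 moved and 9 turned direction. Part of these outcomes was fixed in advance, so the tally is no measure of robustness. Exchanging library names only changes the sign, which gave 6 that turned, 2 that moved and 2 that stayed. Leaving out sequences listed under other precursors changed nothing in 4 values, as there were none. Taking only the most abundant form with reads turned miR-191-3p from -0.79 to 0.14 at 22 h and from -0.50 to 0.054 against DOX 1 h, and moved miR-191-5p to -0.048 and -0.25. Scaling by summed reads moved miR-191-5p at 22 h to 0.069 and its DMSO 22 h level to 5841 scaled reads. Adding the unresolved 20-base form, an alternative chosen after seeing the data, put miR-191-5p at -1.43, 0.02 or 1.47 at 22 h and at -1.53, -0.13 or 1.21 against DOX 1 h. With the names of the 2 libraries of a table exchanged, chosen likewise, the 22 h values would be 0.79 for miR-191-3p, 0.27 for miR-425-5p, -0.24 for miR-425-3p and 2.45 for the T-ending form, and those against DOX 1 h 0.50 for miR-191-3p, 0.077 for miR-191-5p and -0.58 for miR-425-3p. With a 1.5-fold limit, 7 forms were past it in each comparison, and with at least 100 reads in a library 0 were past 2-fold in either. With the lowest listed mean reached in both libraries of the 22 h table, also chosen after seeing the data, 2 and 1 were past it. The ratio of mir-191 to mir-425 was 21.5, 21.7 and 22.6 by summed means, and 18.4, 18.2 and 20.8 by the most abundant 5p forms alone. Over entries of all 3 tables, miR-425-3p held 0.0019%, 0.0016% and 0.0015% of the means in the 1 h, 22 h and DOX tables, miR-191-3p held 0.0032% in the DOX table, and there the leading forms held 49.5% of miR-191-3p, 37.3% of miR-425-3p and 75.7% of miR-425-5p. Reads of 1 library a side limit every ratio, and the forms past 2-fold rest on 82 reads or fewer.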
